A study of Mus musculus with 8 samples.

Results

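Helper CD4 T cells are directed into separate lineages by a small set of transcription factors, and the Th17 lineage is held against rivals led by other factors of this kind. The genes described here are 10 such rivals and their co-factors, taken by symbol from the deposited count table: Tbx21, Eomes and Hlx of the Th1 lineage, Gata3 of Th2, Foxp3 and Ikzf2 of regulatory T cells (Treg), Bcl6 of follicular helper cells (Tfh), its antagonist Prdm1, and the broader regulators Tox and Id2. Each of the 10 symbols matched a single row among the 54532 of the table. The cells were primary CD4 T cells from mouse spleen, cultured for 2 days toward pathogenic Th17 cells, a helper subset that secretes interleukin-17 and can drive autoimmunity. Of 8 poly(A) RNA libraries, 4 carried the genotype label wild type and 4 the label CYP1B1 knockout, and all had the same differentiation treatment. The labels name no strain, age, sex or deleted exon. They also do not state whether the deletion was limited to T cells, or whether replicates were separate animals or cultures, so p-values here rest on the spread between libraries alone, and that spread may be technical.

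As background, naive CD4 cells receive cytokine signals through STAT proteins, and these induce a lineage factor that switches on its own effector cytokines and holds back the factors of other lineages. T-bet, the product of Tbx21, drives interferon-gamma in Th1 cells, GATA3 drives the Th2 cytokines, FOXP3 maintains regulatory T cells, and BCL6 and Blimp-1 (Prdm1) repress each other at the choice between follicular helper and other effector cells.

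Cyp1b1 itself had 34 to 69 counts in the libraries labelled wild type and 2069 to 3169 in those labelled knockout. The targeted gene therefore goes against its label, the counts do not resolve exons, and every direction given here is between libraries as labelled. Total counts ran from 8918342 to 15667313 per library, and the 10 factors together took 0.0207% to 0.0256% of them. Markers fixed for T cells, among them Cd3e and Cd4, summed to 3664 to 3855 CPM in wild type libraries and 3824 to 3874 CPM in knockout libraries. CPM is the count relative to library size, scaled by the trimmed mean of M-values (TMM). Earlier work on these data placed wild type 1 with knockout 1 and 4 apart from the other 5 libraries. Calls and list counts are therefore also given without those 3 libraries where they differ. In the edgeR test described next, 2 of the 9 T cell markers were higher (Cd28 and Lck), 1 was lower (Cd2) and 6 did not pass. That is 33.3% called, beside 30.4% of all tested genes. Without those 3 libraries 1 T cell marker was higher and 2 were lower.

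Across the genotype labels, 4 of the 10 factors were higher in the libraries labelled knockout, 2 were lower and 4 did not pass the test. Hlx, Gata3, Id2 and Tbx21 rose, and Ikzf2 and Bcl6 fell. Foxp3, Eomes, Prdm1 and Tox did not pass. The test was edgeR's quasi-likelihood F-test on the counts of 14428 genes, with Benjamini-Hochberg adjustment over all of them and a threshold of 0.05. It called 30.4% of all tested genes (15.7% higher and 14.6% lower) and 32.6% of the 854 tested genes that the table assigns to a transcription factor family, against 60% of these 10. Scaled by library totals alone, the split over all genes was 1745 higher and 2689 lower, in place of 2272 and 2108. The median log2 fold change of the 10 was 0.077, beside -0.00099 over all tested genes, and their median absolute change was 0.36 beside 0.21. Without wild type 1 and knockout 1 and 4, and also with library totals, 3 factors were higher and 3 lower, since Tbx21 no longer passed and Prdm1 did. All 10 passed the filter on low counts.

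**Figure D1:**
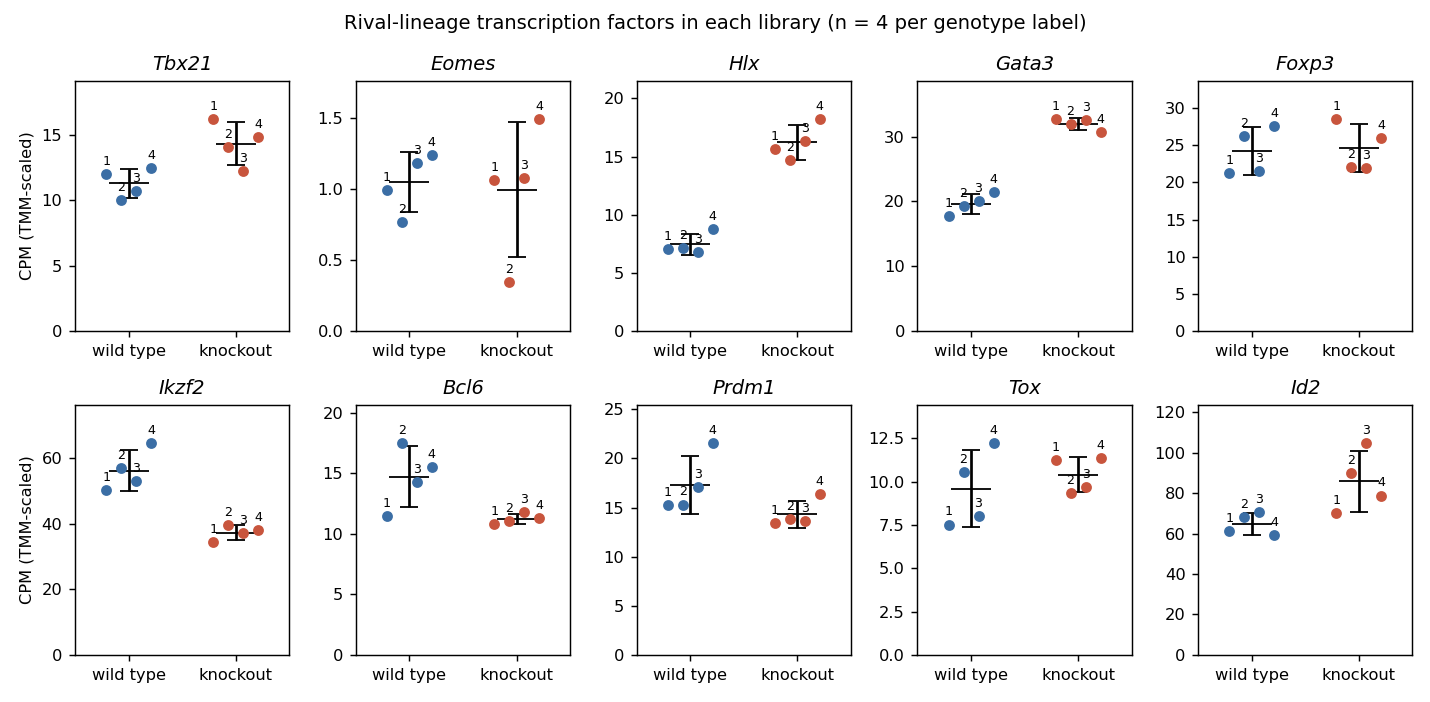
TMM-scaled CPM of each factor in each library, with replicate numbers beside the points and the mean and SD as bars (n = 4 per label). Knockout-labelled libraries lie wholly above the wild type ones for Hlx and Gata3 and wholly below for Ikzf2. The labels overlap for the other 7 factors (70% of the 10). Over all tested genes, 29.2% had labels without overlap, which is near the share among these factors.

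Levels between genes are comparable only per length, so they are given as CPM per kilobase of the deposited gene length (RPKM). Id2, a short helix-loop-helix protein that binds E proteins and keeps them off DNA, was the most abundant of the 10, at a mean of 26.6 RPKM in the libraries labelled wild type and 35.2 RPKM in those labelled knockout. In the wild type libraries Foxp3 (6.06 RPKM), Gata3 (4.92 RPKM), Ikzf2 (4.84 RPKM) and Tbx21 (4.54 RPKM) followed, and each overlapped its neighbour in this order. Hlx (3.27 RPKM) and Prdm1 (3.10 RPKM) overlapped as well, while Bcl6 (2.20 RPKM), Tox (1.26 RPKM) and Eomes (0.252 RPKM) each lay below the factor before it in all 4 libraries. In the libraries labelled knockout the order after Id2 was Gata3 (8.03 RPKM), Hlx (7.12 RPKM), Foxp3 (6.17 RPKM) and Tbx21 (5.76 RPKM), again with neighbours that overlapped. Ikzf2 (3.21 RPKM), Prdm1 (2.57 RPKM), Bcl6 (1.68 RPKM), Tox (1.37 RPKM) and Eomes (0.239 RPKM) stood below these, each without overlap with the one before. Hlx therefore stood below Foxp3, Gata3, Ikzf2 and Tbx21 in the wild type order, and below only Id2 and Gata3 in the knockout order.

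**Figure D2:**
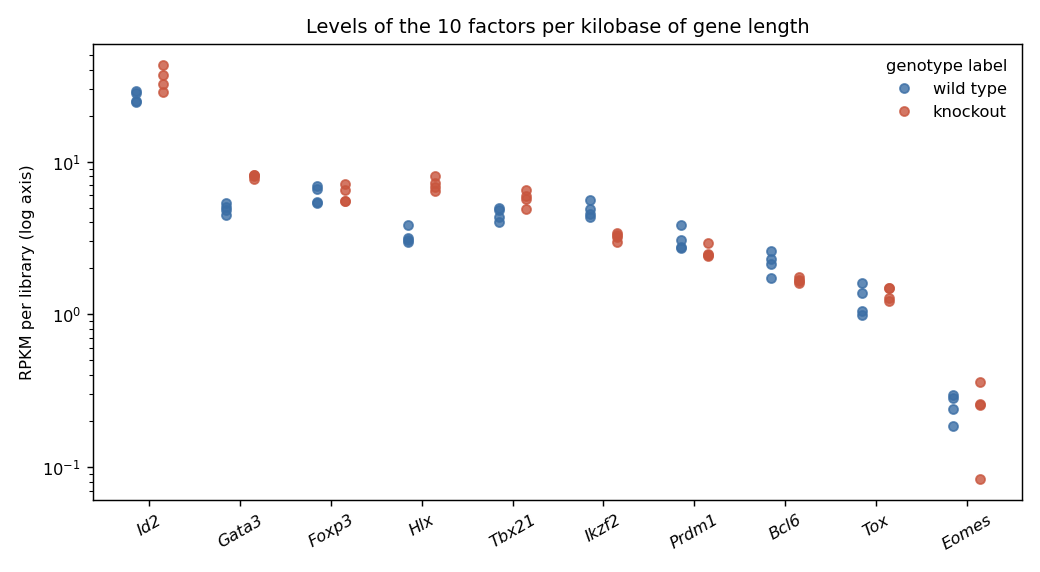
RPKM of the 10 factors per library on a log axis, ordered by the mean over both labels, with 4 points per label. Id2 stands above all others and Eomes below all others in every library.

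The Th1 factors moved unequally: Hlx rose 2.17-fold, Tbx21 rose slightly and Eomes did not pass. Hlx, a homeobox protein that cooperates with T-bet in switching on interferon-gamma in mouse T cells, is encoded on chromosome 1, from 184727140 to 184732619 of GRCm38, minus strand. Levels were 7.03, 7.16, 6.83 and 8.80 CPM in wild type 1 to 4 and 15.6, 14.7, 16.4 and 18.2 CPM in knockout 1 to 4. Every knockout library was above every wild type library, with means of 7.45 ± 0.91 and 16.2 ± 1.49 CPM (SD, n = 4 each). By edgeR its log2 fold change was 1.12 (SE 0.13) with an adjusted p of 6.85e-07. This was the largest of the 10 in size, and 3.3% of all tested genes had a larger one. The call was kept in all 17 alternative fits, with log2 fold changes from 1.03 to 1.21. Non-overlapping labels were found in 29.2% of all tested genes.

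Tbx21 encodes T-bet, the defining Th1 factor, and lies on chromosome 11 at 97098071 to 97115331 on the minus strand. It had 12.0, 10.02, 10.7 and 12.4 CPM in wild type 1 to 4 and 16.2, 14.1, 12.2 and 14.8 CPM in knockout 1 to 4. The labels overlapped at their edges, since knockout 3 lay just under wild type 4. Means were 11.3 ± 1.12 and 14.3 ± 1.66 CPM (SD, n = 4 each), and edgeR gave 0.34 on the log2 scale (SE 0.12) with an adjusted p of 0.0424. This call is weak: it ended in 8 of 17 alternative fits. Among them were the fits without wild type 1 (0.0526), wild type 2 (0.123), wild type 3 (0.115), knockout 1 (0.136) or knockout 4 (0.0875), scaling by library totals (0.0814), and limma-voom (0.0519). Without wild type 1 and knockout 1 and 4 together the log2 fold change was 0.25 (adjusted p = 0.28).

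Eomes, the T-box relative of T-bet that is prominent in memory CD8 and natural killer cells, was close to the detection limit. It lies on chromosome 9 at 118478212 to 118486132 on the plus strand, and had 7 to 18 counts per wild type library and 5 to 23 per knockout library. Its log2 fold change of -0.094 had a 95% interval from -0.90 to 0.71 (edgeR adjusted p = 0.884). Without wild type 1 and knockout 1 and 4 it was -0.62 (adjusted p = 0.457). An antisense gene, Gm33460, overlaps the deposited span of Eomes and had 76 counts over the 8 libraries beside 113 for Eomes, and the labels name no step that would separate their strands.

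Other genes of the Th1 program changed in both directions. Of 20 listed genes, all tested, 3 were higher, 8 lower and 9 did not pass, so that 55% were called beside 30.4% of all tested genes, with a median log2 fold change of -0.22. Without wild type 1 and knockout 1 and 4 the counts were 1 higher and 5 lower. Il18r1, which encodes a receptor chain for interleukin-18, fell from 104.8 ± 10.3 to 55.6 ± 3.22 CPM, and Stat4, the signal transducer of interleukin-12, from 45.6 ± 5.97 to 31.2 ± 1.82 CPM (SD, n = 4 each). Ifngr1, an interferon-gamma receptor chain, fell by 0.44 on the log2 scale, and Ccl5, a chemokine of Th1 and cytotoxic cells, fell by 1.24 (edgeR adjusted p of 0.000444 or less for these 4). Ifng, picked with its values in view, had 1.98 ± 0.88 and 1.11 ± 0.30 CPM (SD, n = 4 each), with an edgeR adjusted p of 0.0668. The 3 called higher, also named with their values in view, were Cxcr3, Irf1 and Il12rb1. Cxcr3 rose from 28.5 ± 6.05 to 46.2 ± 8.29 CPM (SD, n = 4 each, edgeR adjusted p = 0.00326). Irf1 rose by 0.25 and Il12rb1 by 0.22 on the log2 scale (0.0143 and 0.0295). Both of these calls ended without wild type 1 and knockout 1 and 4 (0.267 and 0.263). Most tested natural killer markers, which belong to cells that also use T-bet and Eomes, were lower in the libraries labelled knockout. Of 9, 5 were tested, 4 fell and 1 did not pass (Klre1, at 0.50 on the log2 scale). Their summed level was 36.4 to 41.0 CPM in wild type and 19.2 to 26.9 CPM in knockout. The largest parts of it were Gzma (means of 14.1 and 7.36 CPM) and Prf1 (13.7 and 8.78 CPM). The defining markers Ncr1 and Klrb1c had means under 0.37 CPM in either label. The part of natural killer cells in these results was not tested, and in bulk RNA fewer cells of a type and less RNA per cell cannot be told apart.

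Gata3 rose 1.63-fold in the libraries labelled knockout, with the smallest relative spread within that label of the 10 (SD 2.87% of the mean). GATA3, the zinc finger factor that directs Th2 cells and is also needed for CD4 T cell development, is encoded on chromosome 2 at 9857078 to 9890034 on the minus strand. It had 17.7, 19.3, 19.998 and 21.4 CPM in wild type 1 to 4 and 32.7, 31.9, 32.5 and 30.7 CPM in knockout 1 to 4. The lowest knockout library stood well above the highest wild type library. Means were 19.6 ± 1.54 and 31.9 ± 0.92 CPM (SD, n = 4 each), and edgeR gave 0.70 on the log2 scale (SE 0.091) with an adjusted p of 3.55e-06. The call was kept in all 17 alternatives, from 0.65 to 0.74.

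Genes of the Th2 program changed in both directions. Of 19 listed genes, 16 were tested, and 4 rose, 6 fell and 6 did not pass (62.5% called), with a median log2 fold change of -0.076. Without wild type 1 and knockout 1 and 4, 4 rose and 4 fell of 17 tested. Il4, the signature Th2 cytokine, rose from 3.56 ± 0.88 to 7.18 ± 1.25 CPM, and Il4ra, the chain that binds it, from 832.1 ± 32.6 to 1474 ± 157.4 CPM (SD, n = 4 each), which is 0.83 on the log2 scale. Il13, a Th2 cytokine named after its values were seen, rose by 1.33 on the log2 scale from only 1.37 CPM. Against these, Il1rl1, the interleukin-33 receptor, fell by 1.41 and Ccr8, a chemokine receptor, by 0.54 (edgeR adjusted p from 3.48e-09 to 0.0027 for these 5). Zfpm1, also named with its values in view, which encodes FOG-1, a partner that restrains GATA factors, fell by 0.33 (adjusted p = 0.00978).

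**Figure D3:**
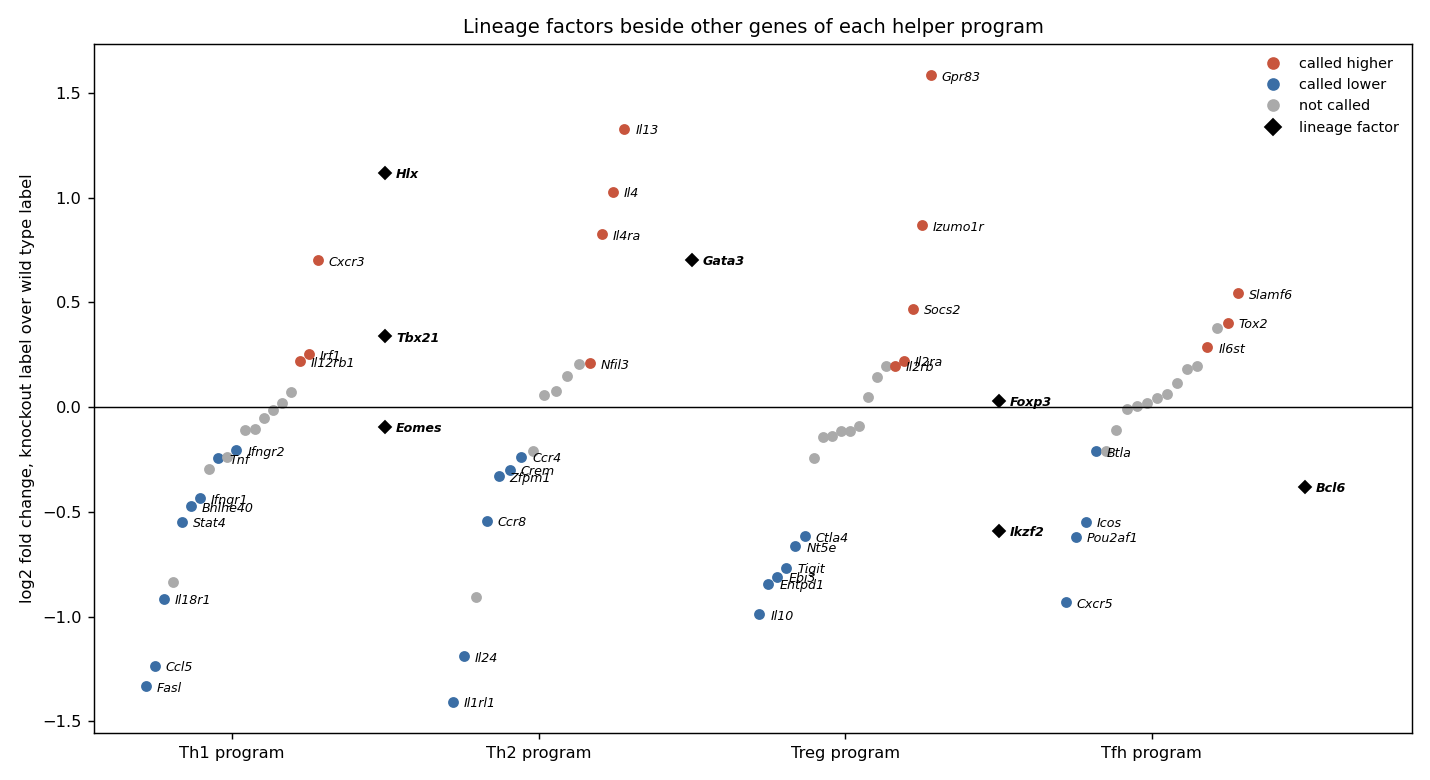
Log2 fold changes (knockout label over wild type label) of the tested genes in 4 helper programs, sorted within each, with called genes named and the lineage factors as black diamonds. Hlx at 1.12 and Gata3 at 0.70 lie near the top of their programs, and Ikzf2 at -0.59 lies among the lower Treg genes while Foxp3 is at 0.030.

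The Treg factors parted: Ikzf2 fell while Foxp3 did not pass. Ikzf2 encodes Helios, an Ikaros-family zinc finger protein that stabilizes regulatory T cells and is also found in activated helper cells. It lies on chromosome 1 at 69531214 to 69687245 on the minus strand. It had 50.2, 57.1, 53.0 and 64.7 CPM in wild type 1 to 4 and 34.3, 39.5, 37.2 and 38.2 CPM in knockout 1 to 4. All knockout libraries lay below all wild type libraries, with means of 56.2 ± 6.31 and 37.3 ± 2.22 CPM (SD, n = 4 each). It was 1.51-fold lower, or -0.59 on the log2 scale (SE 0.087), with an edgeR adjusted p of 1.70e-05, and was called in all 17 alternatives, from -0.65 to -0.52.

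Foxp3, the master regulator of regulatory T cells, on the X chromosome at 7579676 to 7595243 (plus strand), had 21.3, 26.2, 21.6 and 27.6 CPM in wild type 1 to 4 and 28.5, 22.1, 21.9 and 25.9 CPM in knockout 1 to 4. The labels overlapped throughout, and knockout 1 and 4 were the higher knockout libraries. Its log2 fold change of 0.030 had a 95% interval from -0.20 to 0.26 (edgeR adjusted p = 0.871). Without wild type 1 and knockout 1 and 4 the value was -0.18 (adjusted p = 0.296), still short of the test, and with library totals it turned to -0.021. Flicr, a long noncoding RNA gene whose deposited span overlaps the start of Foxp3 on the same strand and which is known in mice to lower Foxp3 expression, was looked at after its values were seen. It fell from 5.73 ± 0.54 to 3.84 ± 0.35 CPM (SD, n = 4 each), which is -0.57 on the log2 scale (SE 0.18), with an edgeR adjusted p of 0.0172. It had 514 counts over the 8 libraries beside 2657 for Foxp3, and how reads of the shared stretch were assigned is not given in the sources at hand.

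Other Treg-associated genes also split. Of 20 listed genes, all tested, 5 rose, 6 fell and 9 did not pass (55% called), with a median log2 fold change of -0.11. The counts were 5 and 8 with library totals, and 4 and 9 without wild type 1 and knockout 1 and 4. Gpr83, a receptor typical of regulatory T cells, rose from 17.6 ± 3.04 to 52.7 ± 6.26 CPM, and Izumo1r, the folate receptor 4 gene, from 92.9 ± 2.40 to 169.4 ± 22.4 CPM (SD, n = 4 each). Tigit, an inhibitory receptor, fell by 0.77 on the log2 scale and the regulatory cytokine Il10 by 0.99 (edgeR adjusted p of 1.27e-05 or less for these 4). Among the Ikaros relatives of Helios, Ikzf3 (Aiolos) rose by 0.65 and Ikzf5 (Pegasus) fell by 1.06 from 3.59 CPM, with adjusted p of 1.33e-06 and 0.00272. Ikzf1 (Ikaros) and Ikzf4 (Eos) did not pass, at 0.11 and -0.11.

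**Figure D4:**
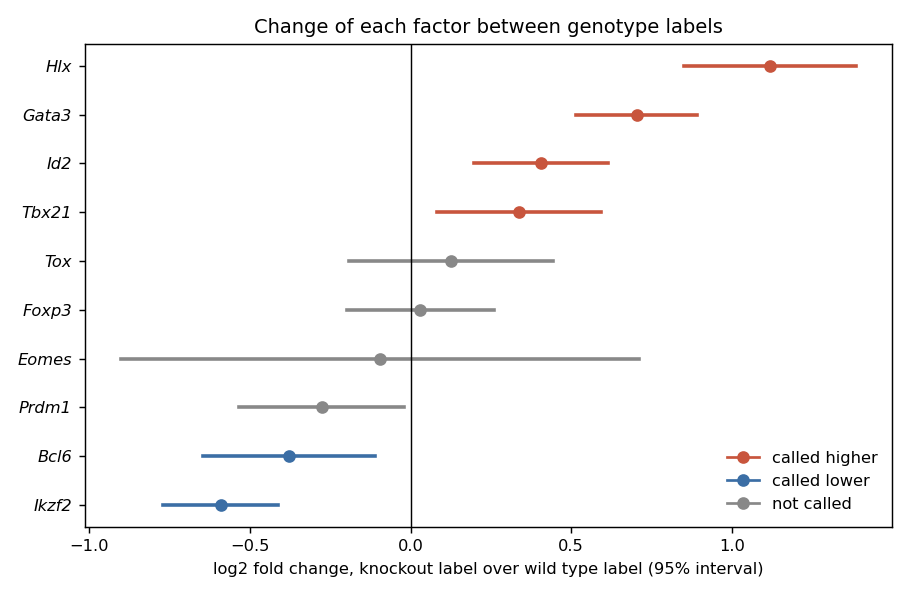
Log2 fold change of each factor, knockout label over wild type label, with its 95% interval from the edgeR fit. Red and blue mark factors called higher and lower at an adjusted p of 0.05, and grey marks the 4 that were not called, including Prdm1, whose unadjusted interval ends just below 0.

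Bcl6 fell and its antagonist Prdm1 did not pass. BCL6, the repressor that defines follicular helper cells and germinal centre B cells, is encoded on chromosome 16 at 23965052 to 23988852 on the minus strand. It had 11.5, 17.5, 14.3 and 15.5 CPM in wild type 1 to 4 and 10.8, 11.03, 11.8 and 11.3 CPM in knockout 1 to 4. The knockout libraries were close together, and wild type 1 lay within them. Means were 14.7 ± 2.52 and 11.2 ± 0.44 CPM (SD, n = 4 each), and edgeR gave -0.38 on the log2 scale (SE 0.13) with an adjusted p of 0.0289. The call ended without wild type 2 (-0.30, adjusted p = 0.104), wild type 4 (0.0709), knockout 1 (0.065) or knockout 4 (0.056), and with no low-count filter (0.0675).

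Prdm1 encodes Blimp-1, a transcriptional repressor found in effector T cells and plasma cells, on chromosome 10 at 44437177 to 44528501 (minus strand). It had 15.3, 15.3, 17.1 and 21.6 CPM in wild type 1 to 4 and 13.4, 13.9, 13.6 and 16.4 CPM in knockout 1 to 4. Replicate 4 was the highest of each label, and knockout 4 overlapped the wild type range. The log2 fold change of -0.28 had a 95% interval from -0.53 to -0.020 (edgeR adjusted p = 0.0947). It passed as lower with library totals (-0.33, adjusted p = 0.0499) and without wild type 1 and knockout 1 and 4 (-0.40, adjusted p = 0.0457). The ratio of Bcl6 to Prdm1, per length, was 0.719 ± 0.161 in wild type and 0.657 ± 0.063 in knockout (SD, n = 4 each), with overlapping ranges.

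Follicular helper genes were mixed as well. Of 20 listed genes, 18 were tested, and 3 rose, 4 fell and 11 did not pass (38.9% called), with a median log2 fold change of 0.031. With library totals 2 rose and 6 fell and the median turned to -0.019, and without wild type 1 and knockout 1 and 4, 1 rose and 3 fell. Cxcr5, the receptor that takes these cells into follicles, fell from 32.2 ± 4.04 to 16.9 ± 1.24 CPM (log2 fold change -0.93), and Icos, a costimulatory receptor, fell by 0.55. Pou2af1, a coactivator shared with B cells, fell by 0.62, and Il6st, the signalling chain of the interleukin-6 receptor, rose by 0.28 (edgeR adjusted p from 4.20e-07 to 0.0106 for these 4). The Il6st call ended without wild type 3 (0.0632) and without wild type 1 and knockout 1 and 4 (0.0892). B lineage cells also express Bcl6, Prdm1, Cxcr5 and Pou2af1, and most of their markers were lower in the libraries labelled knockout. Of 12 B cell markers, 10 fell, none rose and 2 did not pass, and their summed level was 502.1 to 770.3 CPM in wild type and 410.9 to 578 CPM in knockout. The largest part of that sum was Ighm, which did not pass (means of 345.9 and 342.5 CPM). The 10 that fell ranged from -0.54 (Ebf1) to -2.96 (Fcrla) on the log2 scale. Without wild type 1 and knockout 1 and 4, 10 of the 12 again fell, but Ebf1 did not pass (edgeR adjusted p = 0.0516). Of 6 plasma cell markers, 5 were tested, 3 fell, 1 rose and 1 did not pass, with Tnfrsf17 at 0 in every library. Sums were 1040 to 1248 and 1055 to 1226 CPM, mostly Irf4 (means of 907.1 and 898.3 CPM, not passing) and Xbp1 (221.1 and 252.2 CPM, higher). Means fell from 6.43 to 0.87 CPM for Jchain, 22.2 to 10.9 CPM for Mzb1 and 5.02 to 2.44 CPM for Sdc1. Without wild type 1 and knockout 1 and 4, 2 fell and 0 rose, since Sdc1 and Xbp1 no longer passed. Of 13 dendritic cell and macrophage markers, 5 were tested, 3 fell, 1 rose and 1 did not pass, with Clec9a at 0 in every library. Sums were 89.2 to 100.1 and 72.4 to 91.5 CPM, with Batf3, which rose, as the largest part (means of 49.2 and 60.3 CPM). Means fell from 23.9 to 11.3 CPM for Flt3, 12.3 to 6.51 CPM for Cd68 and 4.78 to 2.64 CPM for Zbtb46. Without wild type 1 and knockout 1 and 4, 7 were tested, 1 rose and 2 fell, and Zbtb46 did not pass (edgeR adjusted p = 0.0589). The part of these cells in the levels of the factors was not tested.

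Upstream sequences are shown for 4 factors: Bcl6 and Prdm1 as the antagonist pair, and Tbx21 and Hlx as Th1 factors that rose. They come from the RefSeq promoter table of build GRCm38.p6, which held 8 of the 10 factors (Ikzf2 and Tox were not matched), and give up to 250 bases before a RefSeq start site, 5′ to 3′ on the gene's minus strand, trimmed where GENCODE M21 places an exon. Capitals mark the palindrome TTCNNNGAA, the letters that STAT proteins bind, on either strand. The inner starts lie within the deposited gene spans, 7569 bases from the 5′ end for Bcl6 and 69753 bases for Prdm1.
Bcl6, outer start, chr16:23988853-23989102: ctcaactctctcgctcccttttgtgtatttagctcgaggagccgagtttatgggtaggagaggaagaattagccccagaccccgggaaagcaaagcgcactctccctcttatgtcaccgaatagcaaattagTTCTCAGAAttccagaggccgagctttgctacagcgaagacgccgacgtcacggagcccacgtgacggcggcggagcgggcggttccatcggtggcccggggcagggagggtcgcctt
Bcl6, inner start, chr16:23981284-23981533: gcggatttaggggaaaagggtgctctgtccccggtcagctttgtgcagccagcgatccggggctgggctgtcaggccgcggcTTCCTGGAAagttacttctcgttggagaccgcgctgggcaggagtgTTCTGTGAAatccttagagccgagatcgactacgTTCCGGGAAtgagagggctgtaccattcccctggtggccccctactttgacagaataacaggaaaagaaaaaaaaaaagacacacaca
Prdm1, inner start, chr10:44458749-44458998: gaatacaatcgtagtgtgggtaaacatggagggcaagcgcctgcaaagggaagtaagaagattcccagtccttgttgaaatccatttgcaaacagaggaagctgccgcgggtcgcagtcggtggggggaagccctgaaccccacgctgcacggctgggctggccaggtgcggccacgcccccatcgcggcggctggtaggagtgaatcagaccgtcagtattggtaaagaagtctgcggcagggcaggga
Tbx21, chr11:97115332-97115581: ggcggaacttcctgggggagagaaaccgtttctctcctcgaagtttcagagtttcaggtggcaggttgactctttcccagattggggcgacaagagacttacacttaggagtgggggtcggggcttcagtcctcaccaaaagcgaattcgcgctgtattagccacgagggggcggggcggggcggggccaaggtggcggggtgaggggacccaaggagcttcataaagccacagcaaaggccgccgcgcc
Hlx, chr1:184732620-184732743: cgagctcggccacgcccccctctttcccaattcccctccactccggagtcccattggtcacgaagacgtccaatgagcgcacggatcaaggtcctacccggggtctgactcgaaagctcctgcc
The palindrome occurred 1 time in the outer and 3 times in the inner Bcl6 window, and not in those of Prdm1, Tbx21 or Hlx. Among the factors not shown, it occurred 1 time in the Foxp3 window chrX:7580233-7580482 and in no window of Gata3, Eomes or Id2. At least 1 match was present in 7.02% of the 32851 windows of 250 bases in the table. Other letters searched on both strands of the full windows were GCGTG of the aryl hydrocarbon receptor (in 28.2% of all windows), the E-box CANNTG (66.2%), GATAA of GATA factors (22.6%), GGTGTGA of T-box factors (3.33%) and AGNGAAAG of Blimp-1 (7.3%). GCGTG occurred 2 times in the Prdm1 window and 1 time in that of Hlx and in each of the windows of Foxp3. All 250 bases of each Foxp3 window and of the Gata3 window lie in annotated exons. So do 161 bases of the Id2 window and 126 of the full Hlx window. The start sites used for Gata3 and Id2 lie within the deposited gene spans, 11434 and 1048 bases from the 5′ end. In these windows a match, or its absence, therefore concerns exon sequence in whole or in part. GATAA occurred 2 times and 1 time in the Foxp3 windows and in no other window of the 8 factors. CANNTG occurred 2 times in the Prdm1 window and 1 time in those of Tbx21 and Id2 and the outer one of Bcl6. In the Foxp3 windows it occurred 1 time and 2 times. Neither GGTGTGA nor AGNGAAAG occurred in any window of the 8 factors. A match describes the letters only.

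Id2 rose while its relative Id3 fell. Id2, which promotes effector over follicular helper and memory fates, lies on chromosome 12 at 25093799 to 25097140 on the minus strand. It had 61.1, 68.4, 70.6 and 59.5 CPM in wild type 1 to 4 and 69.9, 90.01, 104.8 and 78.8 CPM in knockout 1 to 4. The labels overlapped only through knockout 1, which lay just under wild type 3, and knockout 2 and 3 were the highest libraries. Means were 64.9 ± 5.44 and 85.9 ± 15.1 CPM (SD, n = 4 each), and edgeR gave 0.41 on the log2 scale (SE 0.10) with an adjusted p of 0.00414. The call was kept in all 17 alternatives, from 0.30 to 0.57. Among the helix-loop-helix genes that work with it, Id3 fell from a mean of 15.2 to 8.55 CPM (-0.83, adjusted p = 2.31e-05). Tcf3, which encodes the E2A proteins that Id2 binds, rose from 126.9 to 163.7 CPM (0.37, adjusted p = 0.00397), a call that ended without wild type 1 and knockout 1 and 4 (0.19, 0.0571). Id1, Tcf4 and Tcf12 did not pass, at -0.0072, -0.24 and 0.16.

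Tox, a high mobility group factor needed for CD4 lineage development in the thymus and linked to follicular helper and exhausted T cells, did not pass. It lies on chromosome 4 at 6686353 to 6991557 (minus strand) and had 7.53 to 12.2 CPM in wild type and 9.36 to 11.3 CPM in knockout libraries. Its log2 fold change of 0.13 had a 95% interval from -0.19 to 0.44 (edgeR adjusted p = 0.574) and turned to -0.10 without wild type 1 and knockout 1 and 4. Its relative Tox2, also a follicular helper factor, rose by 0.40 (adjusted p = 0.0307). That call ended without wild type 2 (0.105), wild type 4 (0.0895), knockout 1 (0.148) or knockout 4 (0.0507), and was also lost with library totals (0.0568), limma-voom (0.0528), and without wild type 1 and knockout 1 and 4 (0.294). Tox4 did not pass, at 0.047.

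Among 24 partners and antagonists of these factors, 23 were tested, and 5 rose, 3 fell and 15 did not pass, with a median log2 fold change of -0.014. The 34.8% called is near the 32.6% of transcription factor genes, and without wild type 1 and knockout 1 and 4, 5 rose and 5 fell. Ezh2, the histone methyltransferase that silences lineage genes, rose from 208.9 to 329.8 CPM (0.66), and Bach2 and Bcor, repressors that restrain effector programs and work with BCL6, rose by 0.31 each. Irf8 fell from 72.1 to 44.6 CPM (-0.69, edgeR adjusted p of 0.00185 or less for these 4).

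The ratio of Gata3 to Tbx21, per length, was 0.922 to 1.20 in wild type and 1.26 to 1.66 in knockout libraries. The ranges did not overlap, a description with no test, and Gata3 alone already had no overlap between labels. The ratio of Id2 to Tcf3 did overlap, at 0.703 to 1.01 in wild type and 0.617 to 1.21 in knockout libraries. That of Tbx21 to Eomes also overlapped, at 15.1 to 21.7 and 16.6 to 67.8. Of 9 Th17 reference genes 2 rose, 4 fell and 3 did not pass (66.7% called). Without wild type 1 and knockout 1 and 4, 2 rose and 2 fell. Ccr6 was at -1.52, Maf at -0.39, Il23r at 0.68 and Il22 at 1.10. Il17a at -0.96 and Rora at -0.34, named with their values in view, also fell (edgeR adjusted p of 0.0406 and 0.0198). Both of these calls ended without wild type 1 and knockout 1 and 4 (0.30 and 0.11).

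Patterns most like each factor were ranked by Pearson's r of log2 CPM over the 8 libraries, which share the difference between labels, among 9870 protein-coding genes averaging 5 CPM or more (9871 for Eomes, itself under that level). For Gata3 the nearest were Lgr4 (r = 0.996) and Pxmp4 (0.990), for Hlx Tmem229b (0.993) and Glrx (0.989), and for Ikzf2 Cxcr5 (0.993) and Neb (0.991). For Tbx21 they were Baz1b (0.984) and Psmc2 (0.983), for Bcl6 Stau1 (0.981) and Pou2f2 (0.965), and for Id2 Npr3 (0.975) and Poli (0.973). For the factors that did not pass they were Fars2 (0.956) and Mpv17 (0.947) for Foxp3, Bbc3 (0.967) and Dnajb13 (0.947) for Eomes, Klhl2 (0.945) and Gzmb (0.944) for Prdm1, and Epas1 (0.942) and Tlr1 (0.932) for Tox. With each label's mean subtracted, so that only spread within labels remains, the nearest to Gata3 were Il23r (0.957) and Echdc1 (0.951), to Hlx Spib (0.978) and Gsn (0.957), and to Id2 Usp22 (0.978) and Cdkn3 (0.969). They were Vcp (0.981) and Baz1b (0.970) for Tbx21, Gstz1 (0.982) and Helz (0.973) for Bcl6, and Ids (0.983) and Zfp398 (0.979) for Ikzf2. For Foxp3 they were Slc10a3 (0.994) and Fam213a (0.987), for Eomes Bbc3 (0.975) and Abhd2 (0.966), for Prdm1 Akr1c12 (0.992) and Tnfrsf13b (0.971), and for Tox Npas2 (0.995) and Zfp866 (0.976). These are the highest of many values over few libraries and are given as descriptions.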

How the data were processed

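The authors deposited raw counts per gene for 8 libraries, whole numbers with different totals. Per the labels' protocols, RNA was captured on oligo-dT beads and primed with random hexamers, with no strand-marking step named, and per the submitters' processing notes reads passed fastp. For aligner, counter and annotation: not given in the sources used here. Of 54532 gene identifiers, 54495 were in GENCODE M21 (GRCm38), 53585 with the same span. Foxp3 was the only factor with another span.

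Counts were fitted in R 4.3.3 with edgeR 4.0.16 (filterByExpr with a minimum count of 10, TMM, robust quasi-likelihood F-test, two-sided) on genotype alone, and the steps were checked on simulated data. The common biological coefficient of variation was 0.0895. Standard errors were derived from each log2 fold change and its F statistic. RPKM uses the deposited gene length. Replicates differed beyond sampling noise (chi-square per gene from 3.69 to 12.3). The factors, gene lists and motifs were chosen with earlier results of these data known. Named were all factors, 4 called genes with the smallest p per program list (cell type lists by count and sum), family members, and 2 genes of most similar pattern, with exceptions stated. Alternatives included DESeq2 1.42.0, limma-voom (limma 3.58.1), other scalings and filters, and left-out libraries. Some values are not reported here.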

Additional observations from a re-analysis of the deposited data

Results flagged for a closer look

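In each label's 4 libraries, the gap between the most extreme library and its nearest neighbour was compared with the whole range for each of the 10 factors, 20 groups in all. Chance flags about 1 in 20 such groups. Hlx in wild type 4 (8.80 CPM) stood apart above the other wild type libraries, at 6.83 to 7.16 CPM. Prdm1 in knockout 4 (16.4 CPM) stood apart above the other knockout libraries, at 13.4 to 13.9 CPM. Leaving out either library kept the Hlx call and left Prdm1 uncalled.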

How the results depend on the processing

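The direction and call of Hlx, Gata3, Ikzf2 and Id2 were the same in all 17 alternatives, and those of Tbx21 and Bcl6 in 9 and 12. Between 3 and 4 factors were called higher in every alternative. Factors called lower numbered 1 with no low-count filter and 1 to 2 over the fits without 1 library, against 2, and 3 with library totals and without wild type 1 and knockout 1 and 4. Over all genes, 3559 to 4679 were called without 1 library. Foxp3 turned to -0.021 with library totals, -0.18 without wild type 1 and knockout 1 and 4, and -0.030, -0.027 and -0.045 without wild type 1, wild type 3 or knockout 1, with a range of -0.045 to 0.098 over the fits without 1 library. Tox turned to -0.10 without wild type 1 and knockout 1 and 4, and Eomes to 0.19 without knockout 2, with a range of -0.36 to 0.19 over such fits and -0.62 without wild type 1 and knockout 1 and 4. None of these passed, and the cause was not tested. With the replicate number as a block, 4936 genes passed in place of 4380, and 4 factors were called higher and 2 lower. Same-numbered libraries deviated together only weakly (r from 0.051 to 0.0906), 5 of 8 libraries correlated best with their own number, and no label states a pairing. Eomes, at 5 to 23 counts, is limited by depth.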

Other observations

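With each label's mean subtracted, levels of some factors moved together across the 8 libraries, given here as Pearson's r of log2 CPM with no test. Foxp3 and Tox had r = 0.912, and Hlx and Prdm1 had r = 0.855. Tbx21 and Id2 had r = -0.935. These were picked as the largest in size among all pairs of the factors, over few libraries, and are given as descriptions. Replicate 4 was the highest library of each label for both Hlx and Prdm1. Within the knockout label, Tbx21, Foxp3 and Tox were higher in knockout 1 and 4 than in 2 and 3, and Id2 was lower there.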
